A study of Mus musculus with 12 samples.

Results

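A group of 8 cytoskeletal genes was followed through 12 RNA sequencing libraries of isolated mouse muscle fibres: Actb and Actg1, which encode the cytoplasmic beta and gamma actins, Tmsb4x and Tmsb10, which encode the thymosins that bind actin monomers, Vim, which encodes the intermediate filament protein vimentin, and Acta2, Myl9 and Tagln, which encode contractile proteins of smooth muscle. The 8 genes were selected by name, with their levels in these libraries already known, so those levels and their differences are descriptions. The p-values printed for them come from a fit over all tested genes and describe these libraries. All 8 were found among the 56162 features of the series, and 7 of them were among the 11747 genes that passed a filter on low counts. Tagln did not pass it.

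Actin is the monomer of thin filaments and of the cytoskeleton. In a mature skeletal muscle fibre the sarcomere is built from alpha-skeletal actin (Acta1) with some alpha-cardiac actin (Actc1), and the cytoplasmic actins form the cell cortex. Cells that surround the fibres use the cytoplasmic actins as their main actins: vimentin marks fibroblasts, endothelial cells and other cells of mesenchymal origin, and Acta2, Myl9 and Tagln are used as markers of vascular smooth muscle. Serum response factor (SRF), a transcription factor that binds a short DNA motif called the CArG box, is known to drive actin and smooth muscle genes.

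Fibres came from male C57BL/6J mice, with an age of 8 weeks given for every group. Type I fibres, slow and oxidative, were taken from soleus after 90 min in collagenase, and type IIb fibres, fast and glycolytic, from extensor digitorum longus after 60 min, so that fibre type, muscle and digestion time cannot be told apart. Training was treadmill running at 12 to 16 m/min in sessions of 60 min, 5 per week over 6 weeks, with dissection 3 days after the final session, and the other mice were untrained. The 4 groups, untrained type I, trained type I, untrained type IIb and trained type IIb, had 3 libraries each. Each fibre was typed by its myosin protein on one piece and sequenced from the other. The labels do not say how many fibres or animals a library holds, so the p-values measure the spread between libraries, which may be technical.

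Library totals ran from 8026397 to 24995288 counts, and genes with at least 10 counts from 3636 to 14428. Of the counts of 4 myosin heavy chain genes, Myh7 of slow fibres held 80.5% or more in each type I library and Myh4 of type IIb fibres held 99.7% or more in each type IIb library, as labelled. Library 3 of untrained type I stood apart. It was the deepest library, it had the highest level of each of the 8 genes, and its summed fibroblast markers reached 6271 CPM (counts scaled to a common library size with TMM factors) against at most 335 CPM in any other library. In a bulk library, fewer cells of a type and less RNA per cell cannot be told apart.

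Per unit of transcript length, Actb was the most abundant of the 8 genes in every library. Its mean in untrained type I libraries was 4359 ± 3884 FPKM (fragment counts scaled to gene length and library total; SD, n = 3), followed by Tmsb4x at 759 ± 643, Vim at 288 ± 465, Actg1 at 281 ± 148, Tmsb10 at 182 ± 233, Acta2 at 135 ± 210, Myl9 at 113 ± 179 and Tagln at 0.918 ± 1.30 FPKM. In this order no neighbouring means differed by more than the larger of their SDs. In trained type I libraries the order was Actb (681 ± 190 FPKM), Actg1 (94.2 ± 44.4), Tmsb10 (36.2 ± 31.4), Vim (29.3 ± 37.8), Tmsb4x (23.9 ± 20.4), Acta2 (11.6 ± 16.5), Tagln (0.177 ± 0.159) and Myl9 (0). In untrained type IIb libraries Actb (1201 ± 611 FPKM) and Actg1 (69.9 ± 33.2) led Tmsb4x (18.1 ± 21.9), Myl9 (17.7 ± 15.1) and Tmsb10 (10.1 ± 15.8), and Vim, Acta2 and Tagln had no count. In trained type IIb libraries Actb (576 ± 286 FPKM) was followed by Tmsb4x (82.4 ± 110), Actg1 (78.5 ± 24.3), Myl9 (22.6 ± 25.9), Tmsb10 (10.96 ± 13.1), Vim (8.13 ± 8.06) and Acta2 (1.07 ± 1.85). In these 3 groups both Actb and Actg1 lay above the next gene in the order by more than either SD. Among the other neighbours only Tagln over Myl9 in trained type I did so, with 6 counts for Tagln in that group. Actb, Actg1 and Tmsb4x had counts in all 12 libraries, and the other 5 genes in 4 to 11.

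The cytoplasmic actins come first. Actb (mm10 chromosome 5, 142903115 to 142906754) stood at 1963, 975.2 and 5030 CPM in the 3 untrained type I libraries and at 534, 679 and 478 CPM in the trained type I ones. It stood at 1735, 730 and 963 CPM in untrained type IIb and at 446, 516 and 871 CPM in trained type IIb libraries. All 3 trained type I libraries lay below all 3 untrained ones, while the type IIb groups overlapped because trained library 3 lay above untrained library 2. The type I means were 2656 ± 2114 and 563 ± 104 CPM (SD, n = 3), and the type IIb means 1143 ± 526 and 611 ± 228 CPM. The fitted trained minus untrained log2 fold change was -2.24 in type I (SE 0.54; edgeR's quasi-likelihood test, unadjusted p = 0.000561, adjusted p = 1 over all genes tested) and -0.90 in type IIb fibres (SE 0.52; edgeR adjusted p = 0.657). Each SE given here is the size of the log2 fold change over the square root of edgeR's F statistic.

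Actg1 (chromosome 11, 120345690 to 120348542) kept a narrower range. It stood at 212, 124 and 289 CPM in untrained type I, 95.1, 75.3 and 92.5 CPM in trained type I, 114, 47.0 and 74.6 CPM in untrained type IIb and 82.0, 96.7 and 121 CPM in trained type IIb libraries. All 3 untrained type I libraries lay above the other 9, by a small margin between library 2 at 124 CPM and trained type IIb library 3 at 121 CPM. Trained minus untrained gave log2 fold changes of -1.25 (SE 0.76; edgeR adjusted p = 1) in type I and 0.35 (SE 0.75; edgeR adjusted p = 1) in type IIb fibres. The highest library was 6.15 times the lowest for Actg1, 11.3 times for Actb and 1770 times for Tmsb4x, the other gene with counts in every library.

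**Figure D1:**
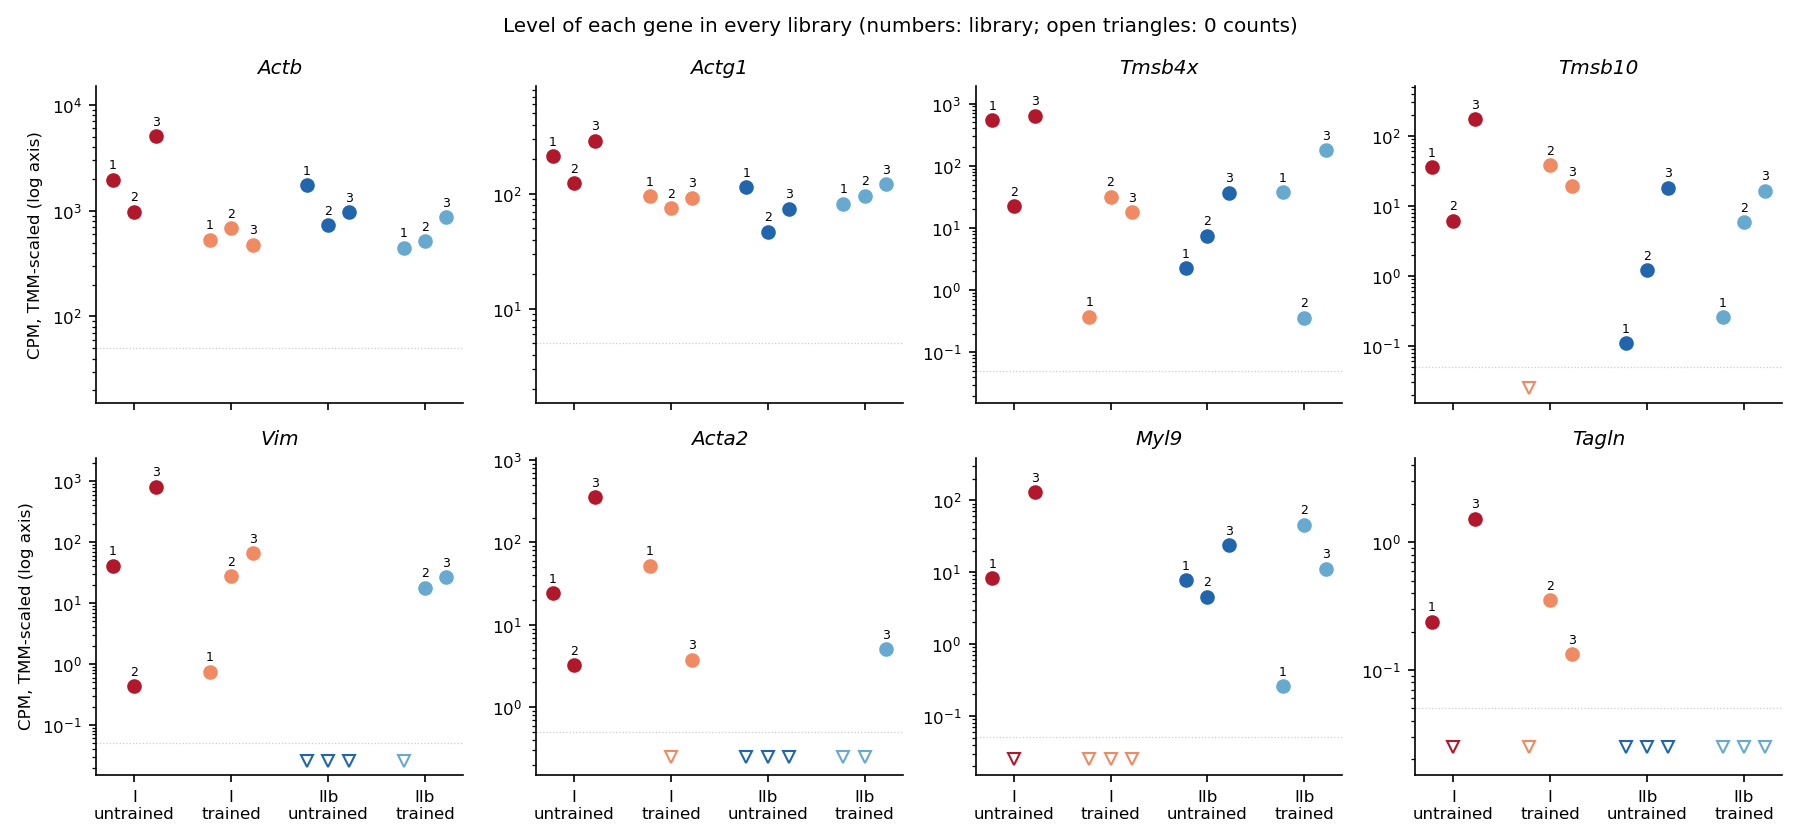
Level of each of the 8 genes in the 12 libraries, in TMM-scaled CPM on a log axis, by group on the horizontal axis; numbers beside points are library numbers, and open triangles under the dotted line are libraries with 0 counts. Actb and Actg1 have points in all 12 libraries, Vim and Acta2 have none in untrained type IIb, Myl9 has none in trained type I, and library 3 of untrained type I is the highest point in all 8 panels.

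The share of the cytoplasmic actins in actin mRNA can be read within each library, free of scaling between libraries. Actb and Actg1 together made up 15.5%, 4.29% and 27.3% of the FPKM of the 6 actin genes (Acta1, Actc1, Acta2, Actg2, Actb and Actg1) in untrained type I libraries. In trained type I libraries the shares were 3.41%, 3.48% and 5.82%. They were 8.43%, 3.75% and 4.51% in untrained type IIb and 2.43%, 1.96% and 4.16% in trained type IIb libraries. The group means were 15.7 ± 11.5%, 4.24 ± 1.37%, 5.56 ± 2.51% and 2.85 ± 1.16% (SD, n = 3), and trained and untrained libraries overlapped in both fibre types. Acta1 held the rest almost alone in type I fibres, at 70.9% to 96.5% of the sum.

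Actc1, the cardiac actin, differed between the fibre types within each training state. It held 16.2%, 3.15% and 8.52% of actin FPKM in untrained type IIb, 2.69%, 1.45% and 0.453% in trained type IIb and at most 0.608% in any type I library, the share in untrained type I library 3, which lay above trained type IIb library 3. It was lower in type I fibres, with log2 fold changes of -5.12 in untrained (59.4 ± 51.6 against 2061 ± 1455 CPM; edgeR adjusted p = 0.0185) and -4.28 in trained mice (19.4 ± 19.6 against 378 ± 243 CPM; edgeR adjusted p = 0.043). All 3 trained type IIb libraries lay below the 3 untrained ones, a difference that did not pass the test (log2 fold change -2.45, edgeR adjusted p = 0.597). In this comparison 4.73% of all genes were without overlap in either direction. Acta1 passed in no comparison.

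The balance of the cytoplasmic actins was described within each library and was not tested. How many other gene pairs separate as well was not counted. Neither gene alone was called or without overlap between trained and untrained type IIb libraries. The Actb to Actg1 ratio of FPKM was 18.0, 18.4 and 15.3 in untrained type IIb and 6.42, 6.31 and 8.50 in trained type IIb libraries, with means of 17.2 ± 1.7 and 7.08 ± 1.23 (SD, n = 3) and no overlap. In type I fibres it was 10.96, 9.27 and 20.6 in untrained and 6.63, 10.7 and 6.11 in trained libraries, with means of 13.6 ± 6.1 and 7.80 ± 2.49 and an overlap of trained library 2 with untrained library 2. Of the 50-base stretches of the longest Actb transcript 14.2% also occur in other genes. The largest part, 9.57%, is shared with Lrrc58, which had 13968 counts over all libraries against 311774 for Actb. Actg1 transcripts hold 1.6% of the stretches and those of Acta1, which had 3298639 counts, hold 1.5%. How reads from such stretches were assigned is not given in the sources used here, and their part in these ratios was not tested. For Actg1, 56.7% of the stretches occur in other genes, among them Gm12715 with 90 counts over all libraries.

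**Figure D2:**
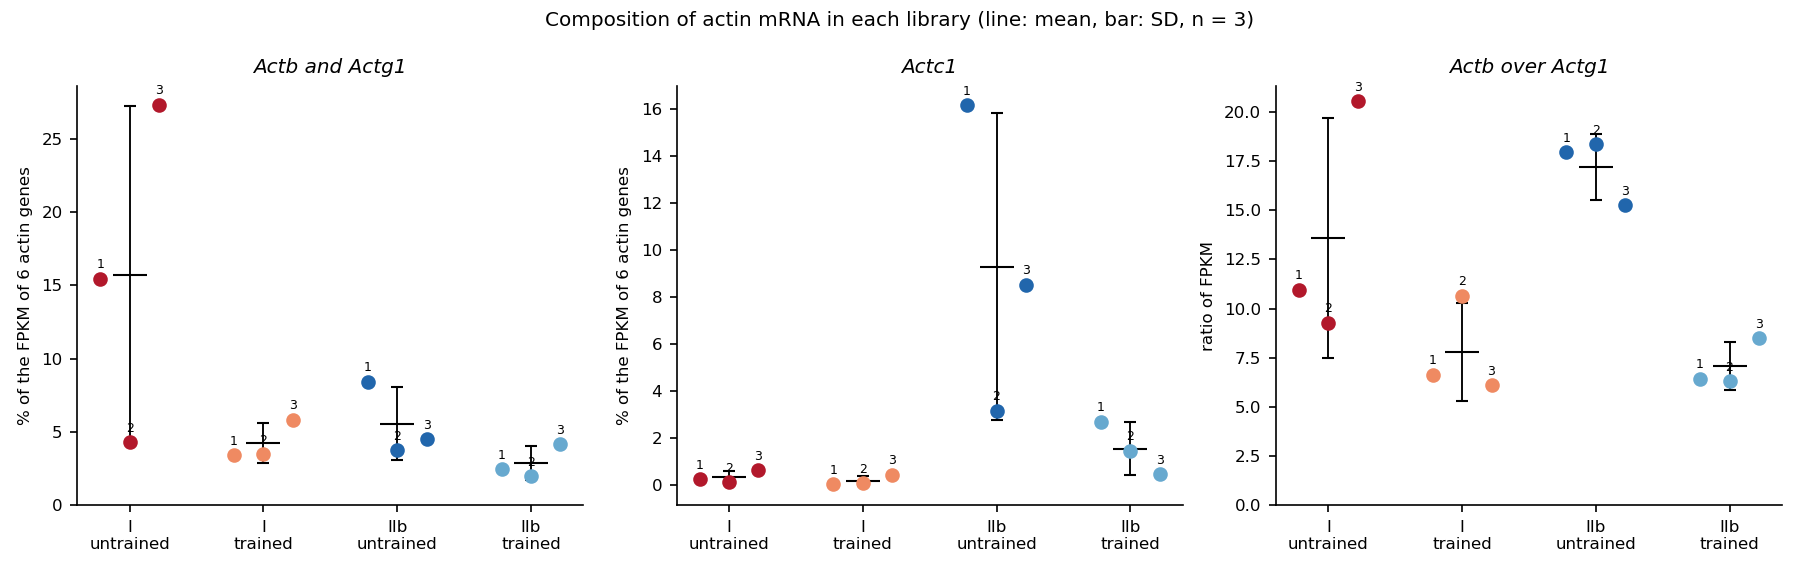
Actin mRNA composition by library: the share of Actb plus Actg1 (left) and of Actc1 (middle) in the FPKM of 6 actin genes, in percent, and the ratio of Actb to Actg1 FPKM (right), by group. Points are libraries with their numbers, lines are means and bars are SD of 3 libraries; the untrained type IIb ratios, from 15.3 to 18.4, sit above the trained type IIb ratios, from 6.31 to 8.50.

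The thymosins bind actin monomers and hold them out of filaments. Tmsb4x (chromosome X, 167207093 to 167209315) stood at 543, 22.2 and 641 CPM in untrained type I, 0.372, 31.7 and 17.8 CPM in trained type I, 2.27, 7.46 and 37.1 CPM in untrained type IIb and 37.5, 0.363 and 177 CPM in trained type IIb libraries. The 2 highest libraries were untrained type I, but the third library of that group lay inside the range of the others, so every pair of groups overlapped. Trained minus untrained gave -4.60 (SE 1.72; edgeR's quasi-likelihood test, unadjusted p = 0.0152, adjusted p = 1) in type I and 2.20 (SE 1.55; edgeR adjusted p = 0.783) in type IIb fibres on the log2 scale. Its lowest libraries had 2 and 3 counts, at or under the 3 counts taken as the floor.

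Tmsb10 (chromosome 6, 72957347 to 72958748) had 591, 85 and 6475 counts in untrained type I and 0, 323 and 432 in trained type I libraries. It had 1, 15 and 198 counts in untrained type IIb and 2, 32 and 227 in trained type IIb libraries. Within each of the type IIb groups library 3 was the highest, with 92.5% and 87.0% of the group's counts. The log2 fold change with training was -1.90 (SE 2.21) in type I and 0.20 (SE 2.14) in type IIb fibres, each with an edgeR adjusted p of 1. Where both thymosins had a count, Tmsb4x counts over Tmsb10 counts ran from 0.0625 in trained type IIb library 2 to 146 in trained type IIb library 1. Of the 50-base stretches of Tmsb10 43.5% occur in other genes, among them Gm9844, a pseudogene copy that had 687 counts against 8381 for Tmsb10.

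Vimentin mRNA had counts in all 6 type I libraries and in 2 of 6 type IIb libraries. Vim (chromosome 2, 13573927 to 13582826) had 686, 6 and 30711 counts in untrained type I, 6, 234 and 1494 in trained type I, 0, 0 and 0 in untrained type IIb and 0, 99 and 367 in trained type IIb libraries. Every type I library had Vim counts and no untrained type IIb library did, so those groups did not overlap, although untrained type I library 2 had only 6 counts. Pooled over each untrained group, the Vim level of type I fibres was at least 4981-fold higher than that of type IIb fibres, with 3 counts in the type IIb group as the floor. Without untrained type I library 3, which held 97.8% of the group's Vim counts, this bound was 245-fold. Without any 1 of the untrained type IIb libraries it was 3077-fold to 3567-fold. Bounds of this kind, here and below, are for pooled counts. They cover counting error alone and not the spread between libraries. The edgeR test gave an unadjusted p of 0.000418 and an adjusted p of 0.0755, so Vim was not called. DESeq2 called it (adjusted p = 1.27e-05), and over 20 alternative fits the adjusted p ran from 1.92e-07 to 1, with 4 under 0.05. In type IIb fibres Vim was at least 186-fold higher in trained than in untrained libraries (edgeR adjusted p = 0.597; DESeq2 adjusted p = 0.0233; range over alternatives 0.00264 to 1), with trained library 1 at 0 like the untrained ones. This bound was 81.0-fold without trained library 3 and 115-fold or 124-fold without untrained library 2 or 3. Trained against untrained type I fibres gave -3.17 (SE 2.01; edgeR adjusted p = 1) on the log2 scale, and 0.54 without untrained type I library 3, which held 91.4% of all Vim counts.

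Among the smooth muscle genes, Acta2 followed a similar division. Acta2, the alpha-smooth muscle actin (chromosome 19, 34241090 to 34255590), had 407, 45 and 13474 counts in untrained type I, 422, 0 and 85 in trained type I and none in untrained type IIb libraries. In trained type IIb libraries it had 0, 0 and 70 counts. The type IIb training difference thus rested on trained library 3. Without that library both groups were at 0 and the log2 fold change went from 7.58 to 0. All untrained type I libraries lay above all untrained type IIb ones, by at least 2209-fold for the pooled groups (edgeR unadjusted p = 0.00257, adjusted p = 0.217; DESeq2 adjusted p = 0.00135; range over alternatives 0.00135 to 0.868). Library 3 of untrained type I held 92.9% of all Acta2 counts and 96.8% of those in its group. Without it the bound was 160.0-fold, and without untrained type IIb library 2 or 3 it was 1364-fold or 1472-fold. The trained type I minus untrained log2 fold change, -2.78 (SE 2.39; edgeR adjusted p = 1), became 0.34 without that library.

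Myl9 is a regulatory light chain of smooth muscle and non-muscle myosin (chromosome 2, 156775420 to 156781658). It was highest in untrained type I library 3, as were Vim and Acta2, but was counted in more type IIb than type I libraries. It had 138, 0 and 4948 counts in untrained type I and 0, 0 and 0 in trained type I libraries, but 72, 57 and 260 in untrained type IIb and 2, 254 and 156 in trained type IIb libraries. All 6 type IIb libraries had counts and only 2 of 6 type I libraries did. In trained mice the pooled level of type I was at least 198-fold lower than that of type IIb fibres (edgeR unadjusted p = 0.00651, adjusted p = 0.42; DESeq2 adjusted p = 0.00815; range over alternatives 0.00815 to 0.844). The measured values did not overlap, but type IIb library 1 had 2 counts (0.257 CPM) and the floor of 3 counts is 0.372 and 0.352 CPM in type I libraries 1 and 2, so the separation from that library is not resolved. The bound was 95.1-fold without trained type IIb library 2 and 83.8-fold without trained type I library 3. In type I fibres Myl9 was at least 968-fold lower in trained than in untrained libraries (edgeR unadjusted p = 0.00407, adjusted p = 1; DESeq2 adjusted p = 0.00277; range over alternatives 0.00277 to 1), with untrained library 2 also at 0. This bound is for the pooled groups and does not hold between single libraries. Untrained library 3 held 97.3% of that group's counts, and the bound was 58.6-fold without it and 410-fold without trained library 3. The untrained fibre type difference changed direction, from 1.94 (SE 2.36; edgeR adjusted p = 0.904) to -1.52 on the log2 scale, without untrained type I library 3.

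Tagln, which encodes the actin-binding protein transgelin (chromosome 9, 45929619 to 45936058), was near the limit of detection. It had 4, 0 and 58 counts in untrained type I, 0, 3 and 3 in trained type I and 0 in all 6 type IIb libraries. A count of 0 allows up to 3 counts, which is 0.216 to 0.544 CPM in type IIb libraries. Other annotated genes share 67.9% of its exon sequence, chiefly Gm48529 on the opposite strand, which had 34 and 15 counts in untrained type I library 3 and trained type I library 3. The libraries do not mark strand, so these reads cannot be told apart. In untrained type I library 3, where Acta2 had 13474 counts, Tagln had 58.

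Training in type I fibres left 0 of the 7 tested genes called, as edgeR called 0.0% of all genes tested. At an unadjusted p under 0.05 edgeR had 3 of 7 lower and 0 higher (2.94% of all genes), and DESeq2 called 1 of 8, Myl9 (0.308% of all genes with an adjusted p). The trained and untrained libraries of Actb and Actg1 did not overlap, 2 of 7, beside 11.7% of all genes in either direction. The median log2 fold change of the 7 was -2.78 beside -0.28 over all genes tested, and -0.98 beside -0.15 without untrained type I library 3. With RLE in place of TMM size factors the all-gene median was -0.57, and it was 1.17 in the untrained fibre type comparison and -1.01 for the difference between the training effects.

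In type IIb fibres training likewise left 0 of 7 called by edgeR, as for 0.0% of all genes. Vim and Acta2 were higher at an unadjusted p under 0.05 (8.21% of all genes), Acta2 from the 70 counts of trained library 3 alone, DESeq2 called Vim alone (2.55% of all genes), and none of the 7 was without overlap (4.73% of all genes). Of the 7, 6 had a positive log2 fold change, with a median of 0.67 beside 0.36 over all genes. Over the fits that leave out 1 library the median ran from 0.13 to 3.48. It was 0.13 beside 0 over all genes without trained library 3, and 3.48 beside 0.46 without untrained library 3. It was 0.37 beside 0.18 without trained library 2 and 1.24 beside 0.41 without trained library 1. Without untrained library 2 the median of the 7 was 0.28, below the 1.57 over all genes.

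Between fibre types of untrained mice edgeR called 0 of 7 members and 0.46% of all genes. At an unadjusted p under 0.05 it had 4 of 7 higher in type I fibres (Actb, Tmsb4x, Vim and Acta2; 17.5% of all genes), and DESeq2 called Vim and Acta2 (9.2% of all genes). Actg1, Vim and Acta2 lay higher without overlap, 3 of 7 beside 27.7% of all genes. All 7 log2 fold changes were positive, with a median of 3.44 beside 0.85 over all genes. Without untrained type I library 3 the median was 1.69 beside 0.72 and 6 of 7 were positive, and without untrained type IIb library 3 it was 6.37 beside 1.26. Without untrained type IIb library 2 the median of the 7 was 2.95, below the 3.87 over all genes, so the excess over all genes depended on that library. In trained mice edgeR called 0 of 7 and 0.536% of all genes. Myl9 alone had an unadjusted p under 0.05 (8.03% of all genes), was called by DESeq2 (2.44%) and was without overlap in its measured values (10.5%). The median of the 7 was -0.12 beside 0.21 over all genes, and 0.17 beside 1.44 without trained type IIb library 3. These comparisons share their groups with the training comparisons and are not independent of them.

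The difference between the training effects, type I minus type IIb, was negative for all 7 genes. Its median was -6.80 on the log2 scale beside -0.68 over all genes tested, and -2.89 beside 0.18 without trained type IIb library 3. EdgeR called 0 of 7 (0.0% of all genes), with 4 of 7 lower at an unadjusted p under 0.05 (8.94%): Tmsb4x, Vim, Acta2 and Myl9. DESeq2 called Vim (adjusted p = 0.0183, range over alternatives 0.000264 to 1) and Myl9 (adjusted p = 0.018, range over alternatives 0.018 to 1), beside 3.39% of all genes.

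Library 3 of untrained type I carried 43.7% (Actg1) to 92.9% (Acta2) of a gene's counts over all 12 libraries. Without it the type I training difference was -1.42 for Actb (edgeR adjusted p = 1), -0.98 for Actg1, -4.15 for Tmsb4x, -0.17 for Tmsb10 and -8.66 for Myl9 on the log2 scale. The untrained fibre type difference was then 0.34 for Actb, 1.07 for Actg1, 4.21 for Tmsb4x, 1.69 for Tmsb10, 10.98 for Vim and 10.38 for Acta2. Actb and Actg1 in type I fibres thus kept their direction with training, while Vim and Acta2 did not. These fits still hold untrained type I library 1, with Tmsb4x at 543 CPM against 22.2 CPM in library 2.

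**Figure D3:**
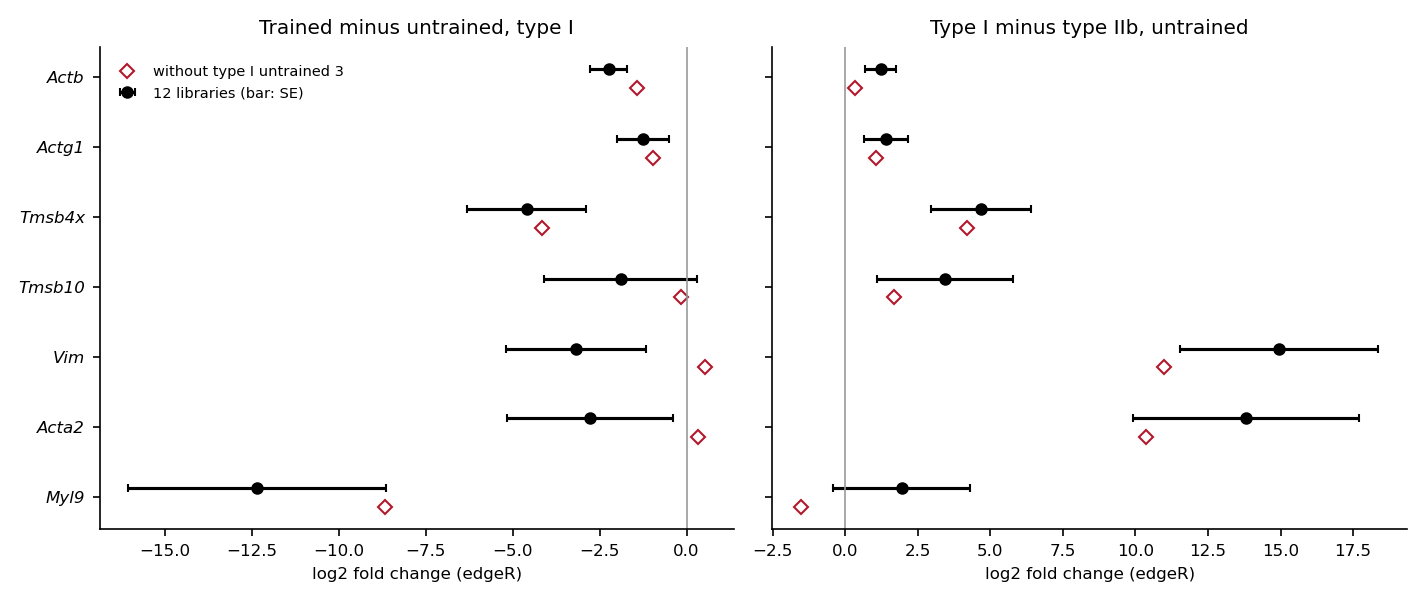
Log2 fold change of the 7 tested genes for training in type I fibres (left) and for type I minus type IIb in untrained mice (right). Black points are fits with all 12 libraries with bars of SE, and open diamonds are fits without untrained type I library 3; in the left panel the diamonds of Vim (0.54) and Acta2 (0.34) lie on the other side of 0, and in the right panel that of Myl9 (-1.52) does.

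Markers of other cell types varied along with several of these genes. The 12 endothelial markers, among them Pecam1, Cdh5 and Fabp4, summed to 51.1 to 1234 CPM in untrained type I, 1.86 to 263 in trained type I, 0 in all untrained type IIb and 0.129 to 288 CPM in trained type IIb libraries. All 12 were at 0 in the untrained type IIb libraries, the group in which Vim and Acta2 were at 0. The 10 fibroblast markers, led by Col1a1, Col1a2 and Dcn, summed to 25.3 to 6271, 33.3 to 166, 0.108 to 11.8 and 0.644 to 335 CPM in the same order of groups. The 9 mural markers summed to 99.9 to 454, 73.1 to 383, 121 to 300.2 and 34.6 to 339 CPM, but in untrained type IIb libraries only Abcc9 had more than 1 count, and Rgs5, Pdgfrb and Notch3 were at 0. The 5 tendon markers summed to 24.5 to 2961, 0.619 to 19.5, 13.9 to 343.6 and 0 to 72.4 CPM. Untrained type I library 3 held Tnmd, Fmod and Comp at 23364, 30047 and 8599 counts, against 3 or fewer in any other library, while Thbs4 and Scx reached 3181 and 154 counts in other libraries. The 5 satellite cell markers summed to 18.2 to 174.8, 0.248 to 42.4, 0.0918 to 319.8 and 0.129 to 55.0 CPM. The 11 immune markers summed to 0.143 to 86.9, 0 to 32.9, 0 to 10.9 and 0 to 1.22 CPM. The 5 erythroid markers summed to 4.625 to 1132, 23.06 to 107.9, 0 to 8.637 and 0 to 57.5 CPM. Untrained type I library 1 held the highest endothelial and erythroid sums, 1234 and 1132 CPM. The part of such cells in the levels of the 8 genes was not tested.

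Myl9, the cytoplasmic actins and the thymosins had counts in libraries with no endothelial marker counts. In untrained type IIb libraries the endothelial sum was 0 and the fibroblast sum at most 11.8 CPM, while Actb stood at 730 to 1735 CPM, Actg1 at 47.0 to 114 CPM and Myl9 at 4.57 to 23.9 CPM. Tmsb4x stood at 2.27 to 37.1 CPM in the same libraries and Tmsb10 at 0.108 CPM, from 1 count, to 18.2 CPM. Other sums were not near 0 there: untrained type IIb library 1, the highest of its group for Actb, had 343.6 CPM of tendon markers, mostly Thbs4, 319.8 CPM of satellite cell markers, all from Chodl, and 121 CPM of mural markers, all from Abcc9. Without the 3 libraries with the most endothelial counts (untrained type I libraries 1 and 3 and trained type IIb library 3), an alternative chosen after seeing the data, untrained type I was left with 1 library, whose spread was taken from the other 3 groups. The type I training difference, which then compares that library with 3 trained ones, was -0.77 for Actb, -0.49 for Actg1, -0.35 for Tmsb4x, 1.71 for Tmsb10, 6.23 for Vim (6 counts in the lone library), 2.44 for Acta2 and 0 for Myl9 on the log2 scale.

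**Figure D4:**
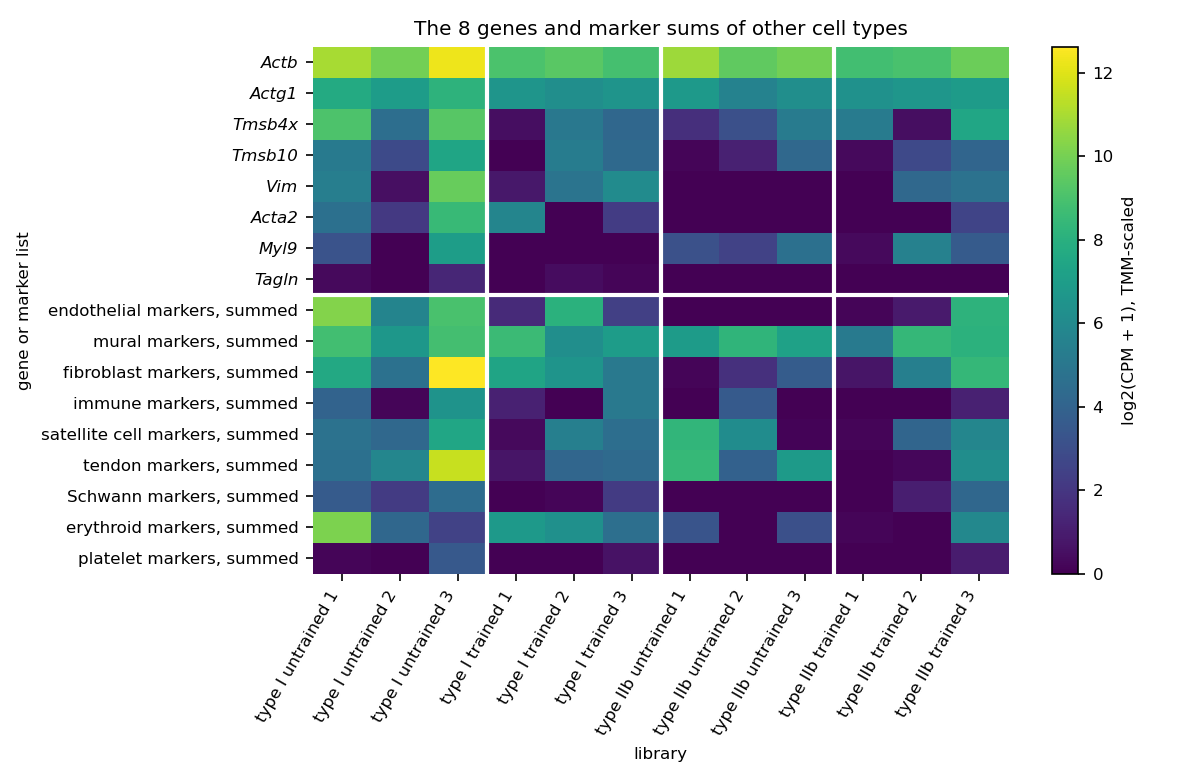
Log2(CPM + 1) of the 8 genes (upper rows) and of the summed markers of 9 other cell types (lower rows) in the 12 libraries, with white lines between groups. Untrained type I library 3 is bright for Actb, Vim, fibroblast and tendon markers, and the untrained type IIb libraries are dark for Vim, Acta2 and endothelial markers while Actb stays bright.

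Across all 12 libraries the 8 genes were positively correlated in pairs, but less so without untrained type I library 3. Pearson r of log2(CPM + 1) was positive in 28 of 28 pairs, with a median of 0.604 and a range from 0.257 (Acta2 with Myl9) to 0.833 (Tmsb10 with Vim). Without untrained type I library 3 the median was 0.248, with 25 of 28 positive and a range from -0.289 to 0.741. Over the 6 type I libraries the median was 0.774. Over the 6 type IIb libraries it was 0.245 in the 21 pairs without Tagln, with 17 positive and a lowest r of -0.334. Actb and Actg1 had r = 0.953 in type I and 0.302 in type IIb libraries. The libraries share depth and makeup, and these values are descriptions.

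Each gene also had close followers among the other tested genes, by r over the 12 libraries. For Actb they were Lipa (0.908), Mgp (0.861) and Npdc1 (0.844), and for Actg1 they were Zfp955a (0.895), Ccnd2 (0.888) and Lrrk1 (0.887). Tmsb4x had Rapgef1 (0.857), Arpc1b (0.857), a subunit of the Arp2/3 complex that nucleates actin branches, and Id3 (0.856). Tmsb10 had its pseudogene copy Gm9844 (0.972), Tubb5 (0.889), a beta-tubulin, and Id3 (0.876). Vim had Wasf2 (0.938), an activator of the Arp2/3 complex, Uap1l1 (0.931) and Sptan1 (0.927), a spectrin. For Acta2 they were S100a11 (0.98), Dpysl2 (0.967) and Gpc3 (0.962), for Myl9 Stard5 (0.852), Gm5526 (0.846) and Smoc2 (0.839), and for Tagln Ucp2 (0.953), Enc1 (0.953) and Pros1 (0.95). Without untrained type I library 3 these r ran from 0.603 (Npdc1 with Actb) to 0.973 (Gm9844 with Tmsb10). Among the larger falls were those of Mgp to 0.664 and Pros1 to 0.76. Mgp had 43406 counts in that library and 292 or fewer in any other. S100a11 and Dpysl2 had 307 and 376 counts in trained type I library 1, where Acta2 had 422, and 0 in trained type I library 2, where Acta2 had 0.

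The mRNAs of proteins that work on non-muscle actin were counted in part of the libraries. Of 31 partners named for this purpose (monomer binding, Arp2/3, capping, non-muscle myosin, crosslinking and adhesion proteins) 30 were tested, and edgeR called 2 as higher in type I fibres. Both were called in untrained and in trained mice, where edgeR called 0.46% and 0.536% of all genes in either direction. Myl12a, a non-muscle myosin regulatory light chain, was at 1061 ± 72 against 136 ± 43 CPM in untrained (log2 fold change 2.96; edgeR adjusted p = 0.00422) and at 1163 ± 134 against 87.9 ± 32.3 CPM in trained mice (3.73; edgeR adjusted p = 0.000359). Tpm3, whose gene also encodes the slow muscle tropomyosin, was at 8825 ± 5363 against 7.15 ± 9.34 CPM in untrained (edgeR adjusted p = 0.0171) and 8903 ± 2731 against 0.463 ± 0.534 CPM in trained mice (edgeR adjusted p = 0.00363). Myl9, which encodes a related light chain, had counts in all 6 type IIb and in 2 of 6 type I libraries.

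With training edgeR called 0 of the 30 partners in either fibre type, with 2 lower in type I (2.94% of all genes) and 6 higher and 1 lower in type IIb fibres (8.21%) at an unadjusted p under 0.05. Their median log2 fold change was -1.27 in type I beside -0.28 over all genes, and 1.02 in type IIb fibres beside 0.36. Between untrained fibre types 17 of 30 lay higher in type I without overlap and 2 lower (27.7% of all genes in either direction), and the median was 3.58 beside 0.85. Without untrained type IIb library 2 the all-gene median was 3.87, and the partners' median in that fit is not given here. In trained mice 4 lay higher and 1 lower (10.5%), with a median of 0.43 beside 0.21. The difference between the training effects had a median of -1.95 beside -0.68, with 0 called. All 31 partners had a count in untrained type I library 3, and 11 did in untrained type IIb library 1, the library with the fewest genes.

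**Figure D5:**
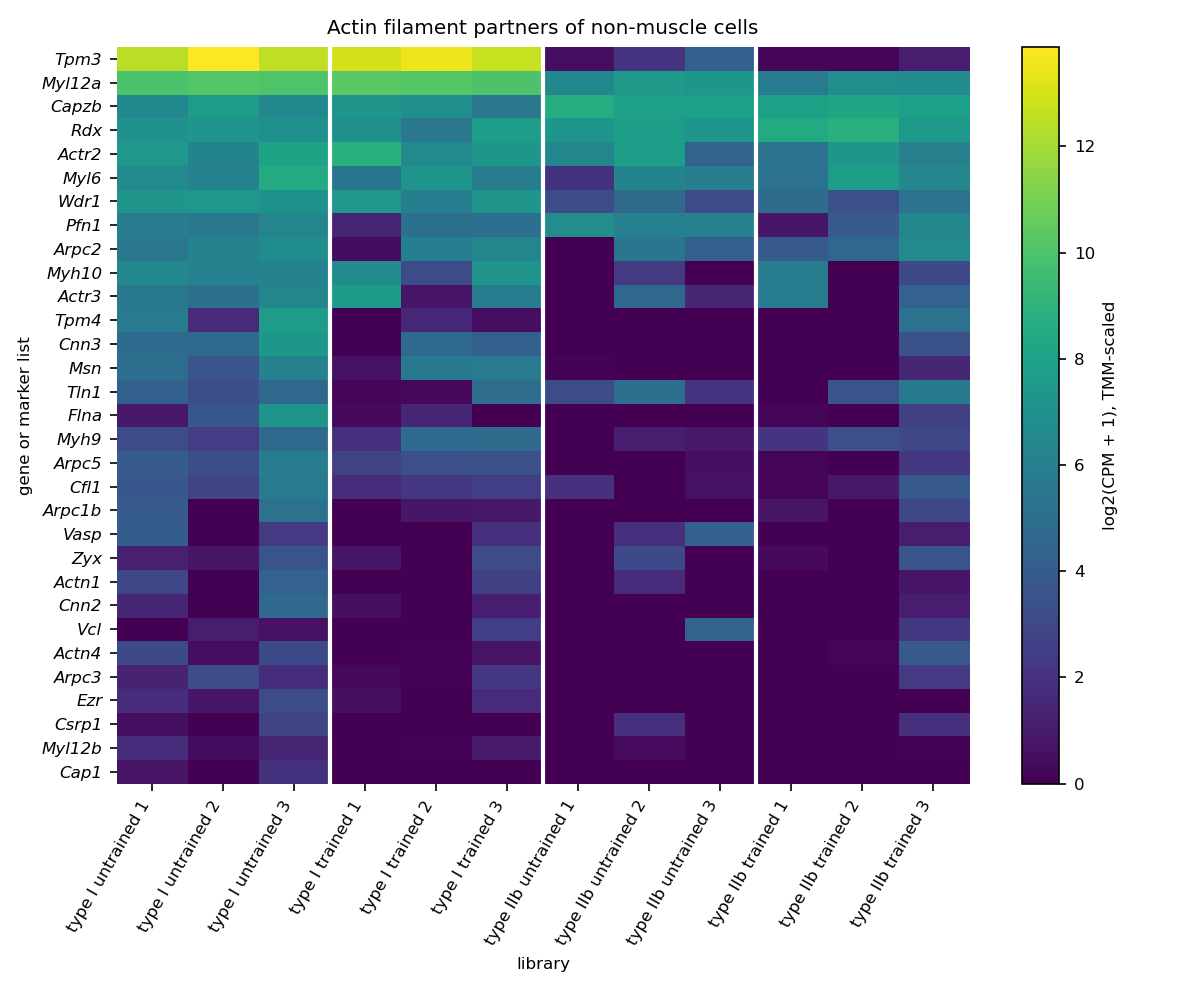
Log2(CPM + 1) of the 31 actin filament partners of non-muscle cells in the 12 libraries, ordered by their sum, with white lines between groups. Tpm3 and Myl12a are bright in the 6 type I libraries and darker in the 6 type IIb libraries, and most of the lower rows are dark in the untrained type IIb libraries.

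Of 12 further smooth muscle genes 8 were tested, and edgeR called 0 in all 5 comparisons, with 0 to 3 at an unadjusted p under 0.05 (2.94% to 17.5% of all genes by comparison). The 3 most abundant were Tpm2, Nexn and Synpo2, which skeletal muscle fibres also express. Tpm2, the beta-tropomyosin gene, stood at 6240 ± 4159 CPM in untrained type I, 9843 ± 6454 in trained type I, 6516 ± 2115 in untrained type IIb and 10090 ± 2905 in trained type IIb libraries. Nexn stood at 591 ± 221, 1064 ± 648, 787 ± 224 and 1219 ± 542 CPM, and Synpo2 at 575 ± 107, 717 ± 203, 604 ± 62 and 531 ± 258 CPM, in the same order. Myh11, the smooth muscle heavy chain, was chosen for mention after its values were seen: it had 1804 counts in untrained type I library 3, 140 in trained type I library 2 and 44 or fewer elsewhere.

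Of the 6 intermediate filament and lamina genes set beside Vim 5 were tested, and edgeR called 0 in any comparison. At most 1 was higher and 1 lower at an unadjusted p under 0.05 (2.94% to 17.5% of all genes by comparison). Des, the intermediate filament of muscle itself, stood at 737 ± 330, 317 ± 363, 228 ± 141 and 386 ± 479 CPM in untrained type I, trained type I, untrained type IIb and trained type IIb libraries. Lmna stood at 167 ± 129, 148 ± 54, 12.4 ± 19.1 and 30.3 ± 36.3 CPM, higher in type I without overlap in both untrained and trained mice (edgeR adjusted p = 0.266 and 0.825). Synm, a partner of desmin, lay lower in type I without overlap, at 82.8 ± 8.9 against 373 ± 180 CPM in untrained and 82.5 ± 74.9 against 459 ± 251 CPM in trained mice (edgeR adjusted p = 0.235 and 0.579). Such separation in either direction was seen for 27.7% of all genes in untrained and 10.5% in trained mice.

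SRF and its cofactors were thinly covered. Of the 4 genes found (Srf, Mkl1, Mkl2 and Myocd) 3 were tested, and edgeR called 0, with 0 at an unadjusted p under 0.05 in all 5 comparisons. Srf stood at 4.70 ± 3.44, 4.51 ± 4.58, 0.775 ± 1.34 and 18.6 ± 30.1 CPM in the usual order of groups. Mkl2 stood at 10.1 ± 6.5, 3.92 ± 6.48, 20.6 ± 19.9 and 40.6 ± 8.4 CPM, and lay lower in trained type I than in trained type IIb libraries without overlap (edgeR adjusted p = 0.767). In that comparison 10.5% of all genes were without overlap in either direction. Mkl1 stood at 0.758 ± 1.31, 1.40 ± 1.49, 2.25 ± 3.89 and 2.66 ± 4.30 CPM.

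Promoter stretches are shown for the members in which the motif of SRF was found, since this factor is known to drive several of them. The 250 bases before the start of each gene were taken from RefSeq on GRCm38.p6, the build of the files, and 6 of the 8 genes matched an entry. The CArG box was searched exactly and with up to 1 departure among its 6 inner positions, and it reads alike on both strands. Exact boxes were found in 1.47% of 32851 such windows, and boxes with up to 1 departure in 8.59%. Actg1 had 1 exact box and Myl9 had 1 exact box and 1 with a departure. Acta2 had 2 with a departure, inside a first exon that GENCODE M21 annotates for Acta2, so only 30 bases around each are given. None was found in these windows of Tmsb4x, Tmsb10 and Vim. All 250 bases of the Vim window lie in GENCODE M21 exons, so the sequence before the annotated Vim gene was not searched. Exons also cover 97 bases of the Tmsb4x window and 0, 160 and 216 bases of the 3 Tmsb10 windows. The sequences read 5′ to 3′ along the gene, with the boxes in capitals. For Actg1 (minus strand, box beginning 90 bases before the start) and Myl9 (plus strand, boxes beginning 161 and 99 bases before the start) they end where the annotated exon begins.
Actg1, chr11:120348543-120348745: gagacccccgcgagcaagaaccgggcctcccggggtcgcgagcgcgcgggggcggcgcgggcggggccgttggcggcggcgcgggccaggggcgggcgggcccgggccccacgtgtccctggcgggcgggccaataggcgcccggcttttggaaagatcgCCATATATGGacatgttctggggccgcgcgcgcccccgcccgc
Myl9, chr2:156775214-156775419: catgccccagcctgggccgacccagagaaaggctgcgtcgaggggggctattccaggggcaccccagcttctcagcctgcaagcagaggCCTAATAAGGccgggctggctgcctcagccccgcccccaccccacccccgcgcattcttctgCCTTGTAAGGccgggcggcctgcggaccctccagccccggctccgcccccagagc
Acta2, chr19:34255438-34255467: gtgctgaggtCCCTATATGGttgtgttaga
Acta2, chr19:34255388-34255417: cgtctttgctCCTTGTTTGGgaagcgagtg
The sarcomeric actins, searched the same way, each had 1 exact box, Acta1 73 and Actc1 47 bases before the start.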

How the data were processed

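Read counts per gene and FPKM values were deposited for 12 libraries. The deposited counts were whole numbers, not normalised. FPKM values were scaled by the authors to gene length and library total, and equalled count per length and total to within 0.1% for 94.5% of nonzero values (largest deviation 0.362%). Per the submitters' processing notes the aligner was TopHat2 on mm10; the counting rule, the annotation and the aligner version are not given in the sources used. Per the labels' protocols cDNA was made with SMART-Seq HT and libraries with Nextera XT. Reads carry no molecular identifiers, and the floor of 3 counts therefore covers counting error alone. Unused per-sample columns numbered 0.

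Counts were tested in R 4.3.3 with edgeR 4.0.16 (quasi-likelihood, robust, TMM, 1 mean per group, all 12 libraries, minimum count 10 and minimum total count 15), with Benjamini-Hochberg adjustment over 11747 genes and calls under 0.05. Alternatives were RLE factors, no filter, a replicate block, only the groups compared, each library left out, DESeq2 1.42.0, and limma 3.58.1 on log2(FPKM + 0.1) and log2(FPKM + 1). The fit was tested on simulated data. Levels are TMM-scaled CPM, as mean ± SD of 3 libraries. Shared sequence was checked as 50-base stretches in GENCODE M21 transcripts. Gene lengths implied by the deposited FPKM are shorter than the longest transcripts (Actb 876 against 1920 bases), which bears on levels between genes.

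The members and the gene lists were chosen with earlier results of these data known. Genes named beside the 8 members were, of each list, those called or else the 3 with the highest mean FPKM, the 3 most similar genes of each member by Pearson r, and the leading markers of other cell types.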

Additional observations from a re-analysis of the deposited data

How the results depend on the processing

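Over 723 alternative values of the members' log2 fold changes, 679 kept their direction and their side of the threshold, 13 passed it only under the alternative, 28 changed direction and 3 became 0: Acta2 in type IIb training without trained type IIb library 3, and Acta2 in type IIb training and Myl9 in type I training without the 3 libraries highest in endothelial markers. With RLE factors none changed direction. Genes called numbered 0, 0, 54, 63 and 0 for training in type I, training in type IIb, fibre type in untrained, fibre type in trained and the interaction. Without the filter they were 7, 9, 123, 81 and 26, and by DESeq2 47, 324, 1075, 278 and 375. With only the groups compared, fibre type in trained mice gave 39. Leaving out 1 library each gave 0 to 1, 0 to 2, 22 to 63, 29 to 77 and 0 to 2 genes in the same order. Leaving out library 1, 2 or 3 of untrained type I or library 3 of untrained type IIb, fibre type in untrained mice gave 33, 29, 22 and 27, and without trained type I library 1 or trained type IIb library 2 fibre type in trained mice gave 36 and 29. Members called numbered 0 in every comparison; DESeq2 called 1, 1, 2, 1 and 2 of them, and no filter called 1 in training of type IIb, 2 in fibre type in untrained mice and 1 in the interaction. Leave-one-out fits called 0 to 1 member in untrained fibre type: Vim without untrained type I library 2 (edgeR adjusted p = 0.0125) and without trained type IIb library 1 (0.0377). The cause of these differences was not tested.

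Single libraries changed the direction of some members. Log2 fold changes over the leave-one-out fits ran from -4.43 to 0.54 for Vim and from -6.05 to 0.34 for Acta2 in type I training, positive only without untrained type I library 3. Tmsb10 in type IIb training ran from -1.20 to 3.48, negative without untrained type IIb library 1 (-0.37), untrained library 2 (-0.29) or trained library 3 (-1.20). Myl9 ran from -1.07 (without trained type IIb library 2) to 1.63 in type IIb training and from -1.52 (without untrained type I library 3) to 2.90 in untrained fibre type. In trained fibre type Actb ran from -0.30 to 0.17 (without trained type IIb library 3) and Vim from -0.067 (without trained type I library 3) to 1.83.

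Some alternatives were chosen after seeing the data. Leaving out the 3 libraries highest in endothelial markers left 1 untrained type I library, whose spread was taken from the other groups, so that comparisons with this group set 1 library against the others. Genes called were then 2 in type IIb training and 25 in untrained fibre type, and direction changed for Tmsb10 (1.71), Vim (6.23) and Acta2 (2.44) in type I training, Tmsb10 (-1.21) in type IIb training, Actb (-0.39), Tmsb10 (-0.22) and Myl9 (-10.13) in untrained fibre type, Actb (0.20) in trained fibre type, and Actb (0.59), Tmsb10 (2.92) and Acta2 (2.44) in the interaction. Without the 2 libraries with the fewest genes, type IIb training and the interaction gave 1 gene each. On FPKM with limma, Myl9 in type IIb training was -0.96 and -0.50 with pseudocounts of 0.1 and 1 and Myl9 in untrained fibre type -0.72 with 0.1, while in trained fibre type Actb was 0.31 with either and Actg1 0.20 with either. With the longest transcript as gene length, also chosen after seeing the data, the mean cytoplasmic share of actin was lower in all 4 groups. In untrained and trained type I libraries it was 10.99% in place of 15.7% and 2.81% in place of 4.24%. In untrained and trained type IIb libraries it was 3.74% in place of 5.56% and 1.885% in place of 2.85%.

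The replicate numbers were not taken as pairs: 4 of 18 same-number pairs had a correlation of their deviations over 0.1 (range -0.126 to 0.177), and 5 of 12 libraries correlated best with their own number. With the replicate block 41 genes were called in trained fibre type in place of 63, 42 in place of 54 in untrained fibre type, and no member was called. The block moved Actb in trained fibre type from -0.12 to 0.000154 on the log2 scale. The floor bears most on Tagln and on the zeros, as 3 counts were worth 0.0793 to 0.544 CPM. Why Tagln had so few counts was not tested.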
